A study of Mus musculus with 9 samples.

Results

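RNA sequencing compared ID4-EGFP+ spermatogonia that stained strongly for the surface protein TSPAN8 (TSPAN8-high) with those that stained weakly (TSPAN8-low). These are 6 of the 9 libraries of the series, 3 in each fraction. The cells of every library came from testes of LT-11B6 Id4-eGfp transgenic mice on a C57BL/6 background at postnatal day 6, and all were sorted on EGFP driven by Id4. They were stained with an antibody to TSPAN8 and the most strongly and the most weakly positive 1/3 were collected. The remaining 3 libraries hold all ID4-EGFP+ cells without a TSPAN8 gate, and they enter below only where the position of a gene between the fractions is described. No genotype or treatment separates the fractions, so each comparison is between parts of the same sorted population. Of the genes in the deposited table, 10846 reached 1 FPKM (fragments scaled to transcript length and library size) in at least 3 of the 6 libraries and were tested. The comparison asks which functions part the strongly from the weakly stained cells.

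Spermatogonial stem cells renew themselves and also give rise to progenitors, which respond to retinoic acid and turn into differentiating spermatogonia. Renewal depends on GDNF from Sertoli cells, which signals through the receptor pair GFRA1 and RET and induces transcription factors such as Etv5 and Bcl6b. ID4 is an inhibitor of DNA binding whose level is highest in cells with stem cell activity, and TSPAN8 is a tetraspanin, one of a family of proteins that span the membrane several times and organise other surface proteins.

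Values of 3 libraries are given in FPKM in the order of their numbers 1, 2 and 3. Fold changes are differences of log2(FPKM + 1), TSPAN8-high minus TSPAN8-low, so a true change is understated where FPKM is low. They come from 1 limma fit with the library number as a pair, and a gene was called at a Benjamini-Hochberg adjusted p under 0.05 over all tested genes. Tspan8 transcripts followed the staining, and Id4 transcripts differed in the same direction, although both fractions were sorted alike on EGFP driven by Id4. Tspan8 stood at 43.7, 29.6 and 28.8 FPKM in TSPAN8-high and at 6.65, 10.8 and 11.8 in TSPAN8-low (log2 fold change 1.72, SE 0.21, adjusted p = 0.00069). Id4 stood at 71.1, 71.6 and 58.9 against 17.7, 27.0 and 33.9 FPKM (1.37, SE 0.18, adjusted p = 0.00085). All 3 strongly stained libraries were above all 3 weakly stained ones for both genes. For each, the exact two-sided permutation test over the 6 libraries gave p = 0.1 and the exact sign flip over the 3 pairs gave p = 0.25, the smallest values those designs allow.

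**Figure D1:**
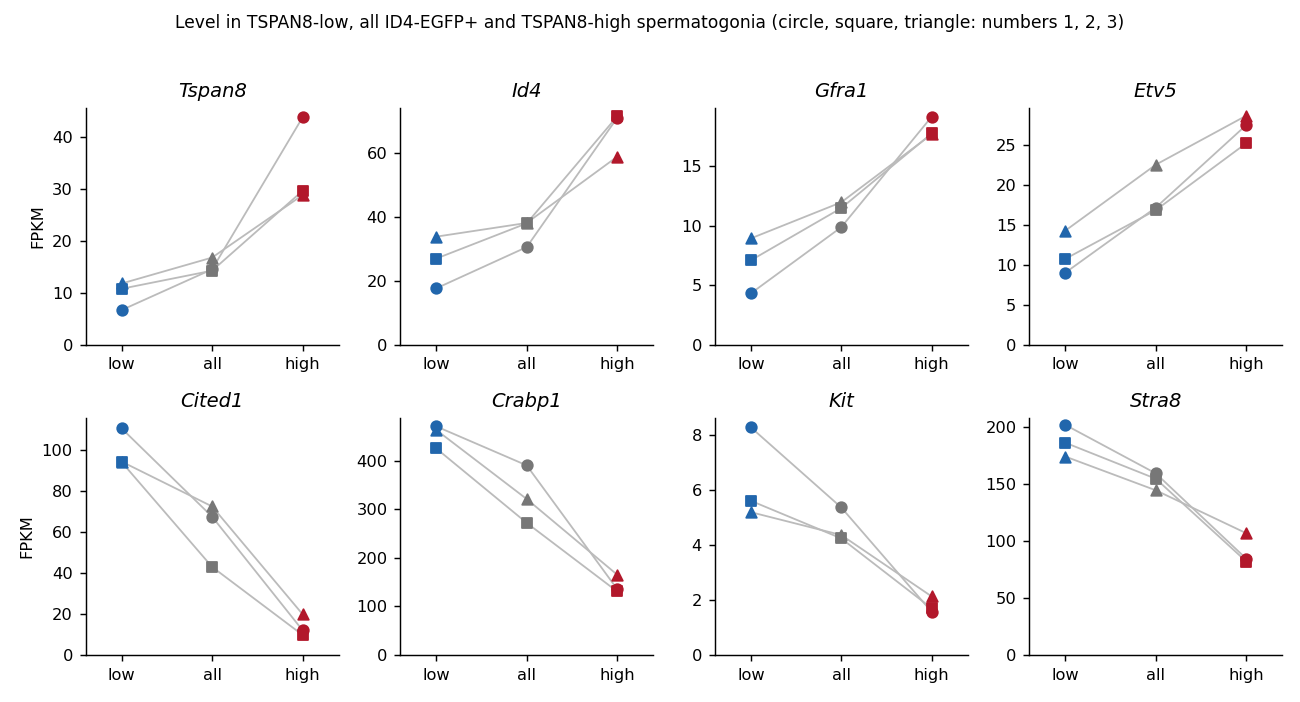
FPKM (vertical axes, from 0) of 8 genes in TSPAN8-low, all ID4-EGFP+ and TSPAN8-high libraries; points are single libraries, their shape gives the library number and grey lines join equal numbers. Tspan8, Id4, Gfra1 and Etv5 are highest and Cited1, Crabp1, Kit and Stra8 lowest in the 3 TSPAN8-high libraries.

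Germ cell transcripts filled all 6 libraries: the RNA helicase gene Ddx4 lay between 347 and 652 FPKM and Dazl, which encodes a germ cell RNA-binding protein, between 1311 and 1849. Across tested genes Pearson's r was 0.981 to 0.991 within a fraction and 0.965 to 0.982 between fractions. Depth is unknown, since the files give no counts. The labels do not say whether the numbered libraries came from separate litters or sorts, so the p-values measure only the spread between these preparations. RNA of Sertoli cells, the somatic cells that surround germ cells, was present and moved with the staining. The 28 Sertoli markers in the table summed to 115, 149 and 342 FPKM in TSPAN8-high and to 20.3, 38.4 and 192 in TSPAN8-low, and 21 of the 28 rose with the staining in all 3 pairs. The abundant secreted-protein genes carried this sum, among them Clu with 19.13, 24.2 and 60.6 against 2.38, 3.45 and 31.6 FPKM. The Sertoli markers Sox9, Amh, Wt1 and Gata4 were under 1 FPKM in every library. Fshr and Dhh reached 1.27 and 1.00 FPKM in TSPAN8-high library 3, and Inha stood at 7.59, 7.63 and 29.7 against 0.465, 1.61 and 19.9. No Sertoli marker was at 0 in all 6. Of the 15 Sertoli markers that could be tested 14 were higher (median log2 fold change 1.18), and 1 was without the pair term. Leukocyte markers summed to 42.8, 59.8 and 92.8 FPKM against 16.4, 29.1 and 35.8, and peritubular myoid markers to 20.7, 19.3 and 33.7 against 9.18, 13.9 and 16.8. None of the 10 Leydig markers reached the minimum for testing, 9 were under 1 FPKM everywhere, and their sum was highest, at 6.81 FPKM, in TSPAN8-low library 3. In bulk RNA, fewer cells of a type and less RNA per cell cannot be told apart. In a fit with the mean Sertoli marker level as a term in place of the pair, 51 genes were higher and 127 lower. In that fit Tspan8, Foxc2, Etv5, Dusp6, Plvap and Optn stayed called higher and Crabp1, Kit, Stra8 and Cited1 lower, while Id4, Gfra1 and Ret kept positive estimates of 1.14, 1.06 and 0.88 with adjusted p of 0.063, 0.066 and 0.094.

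**Figure D2:**
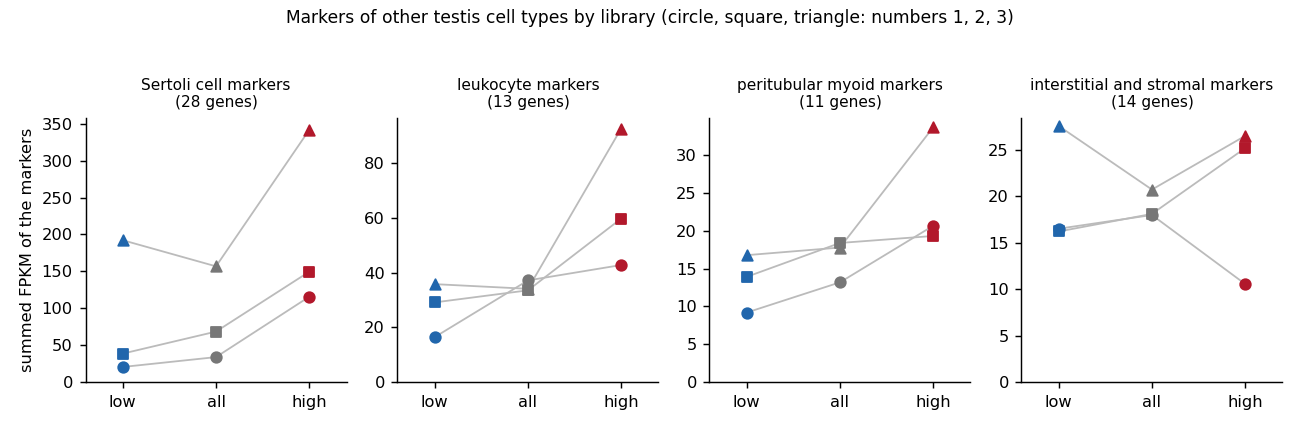
Summed FPKM (vertical axes, from 0) of markers of 4 other testis cell types in each library; points are single libraries and grey lines join equal numbers. In each pair the strongly stained fraction has the higher Sertoli sum (342 against 192 in pair 3), and the 3 pairs differ in their starting level.

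In TSPAN8-high 1251 of the 10846 tested genes were higher and 813 were lower, together 19.0% of those tested, with 11.5% higher and 7.5% lower. These shares are the background against which the gene lists below are read. Fractions with no overlap between their 3 values were found for 25.5% of tested genes, called or not, and for 945 of the higher and 616 of the lower calls. Most differences were small: 127 higher and 85 lower calls reached 2-fold, while 595 and 435 stayed under 1.5-fold. The median SE of a log2 fold change was 0.14. Without the pair term 313 genes were higher and 217 lower, and every one of these was also called with it in the same direction. Some lists below also give counts with 1 pair left out. Without pair 2 or pair 3, limma gave each gene the variance trend over all genes and not its own spread. Other scalings turned the balance of the directions: the authors' normalized values gave 777 higher and 911 lower, a common median for all libraries 746 and 1032, and quantile normalization 856 and 948. The median over all tested genes was 0.05 as deposited and moved by -0.08 at most.

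Cells without a TSPAN8 gate lay between the fractions for most called genes. The mean of all ID4-EGFP+ libraries was between both fraction means for 93.8% of the higher calls, 79.1% of the lower calls and 39.3% of the genes not called. Called genes were chosen for a gap between the fraction means, and another mean falls more easily inside a wide gap. The contrast with the genes not called is therefore in part set by that choice, and these shares are a description. On a scale from 0 at the TSPAN8-low mean to 1 at the TSPAN8-high mean, the median position of the ungated cells was 0.44 for genes at least 2-fold higher and 0.28 for genes at least 2-fold lower. Of the 85 genes at least 2-fold lower, 23 belong to a set of 35 that follow Omd, described below. The ungated mean lay between the fraction means for 4 of these 35 and for 82.1% of the other lower calls. Higher calls had a median level of 8.51 FPKM and lower calls of 16.8, against 10.8 for all tested genes.

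**Figure D3:**
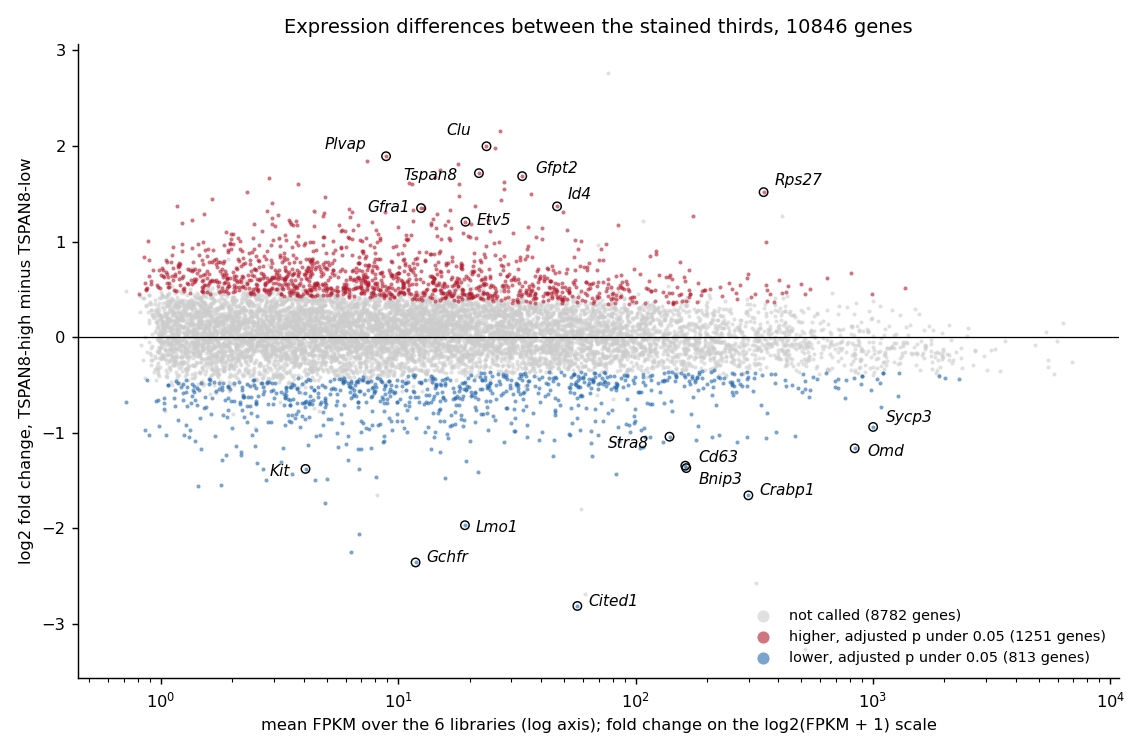
Log2 fold change of TSPAN8-high minus TSPAN8-low (vertical axis) against the mean FPKM over the 6 libraries (horizontal log axis); each point is a tested gene, red where it was called higher (1251), blue where lower (813) and grey where not called (8782). Cited1 falls furthest among the called genes, and Rps27, the highest red gene on the right, has overlapping values.

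Most tested genes of the stem cell state were higher in the strongly stained fraction. Of 15 tested genes for stem cell factors and factors induced by GDNF, 10 were higher and 1 lower (median 0.96, against 0.05 for all tested genes). Like all the lists, this one was written with earlier results of these data known, so its share of rises is a description. Foxc2, which encodes a forkhead transcription factor of spermatogonial stem cells, stood at 7.50, 5.97 and 6.75 FPKM against 1.87, 2.22 and 2.16 (1.32, SE 0.14, adjusted p = 0.00048). Etv5, which encodes an ETS factor under the control of GDNF, stood at 27.5, 25.2 and 28.6 against 9.00, 10.7 and 14.3 FPKM (1.21, SE 0.14). For both genes every TSPAN8-high library was above every TSPAN8-low one. T, the gene of the T-box factor brachyury, had 2.56, 2.07 and 2.24 against 0.518, 0.313 and 0.388 FPKM (1.23, SE 0.14), and its differences in pairs 1, 2 and 3 were 1.23, 1.23 and 1.22. Tcl1, Nanos2, Egr2, Bcl6b, Lhx1, Eomes and Cxcr4 were higher by 0.77 to 1.27. Id1, a relative of Id4, was lower (log2 fold change -0.62, adjusted p = 0.033). Of the 10 rises 8 were called without the pair term, and leaving out a pair gave 10 or 11. With the mean Sertoli marker level as a term in place of the pair, 4 rises were called.

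Genes shared by all undifferentiated spermatogonia were called only as higher. Of 18 tested 7 were higher and none lower (median 0.30). Dppa4, a pluripotency-associated gene, stood at 76.7, 82.8 and 93.5 against 33.7, 59.7 and 66.5 FPKM (0.70, SE 0.15, adjusted p = 0.008). Cdh1, the E-cadherin gene, stood at 3.38, 2.44 and 2.63 against 1.00, 1.73 and 1.21 FPKM (0.73, SE 0.17, adjusted p = 0.013), and Sall1 was higher by 0.60. The values of these 3 genes did not overlap, although pair 1 held the largest difference in each. Zbtb16, whose product PLZF maintains the undifferentiated state, was higher by 0.59. Of the 7 rises 1 was called without the pair term, and without pair 1 it was 4. With the Sertoli term none was called higher.

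Most tested progenitor and differentiation genes were lower in the strongly stained fraction. Of 10 tested genes of progenitors and of retinoic acid competence 7 were lower and none higher (median -0.68), and of 10 genes of differentiating spermatogonia also 7 were lower and none higher (median -0.78). Both lists hold genes placed there with earlier results of these data known. Without Tbx1, Lhx8 and Ndrg4 the first had 4 of 7 lower, and without Ly6k and Gadd45b the second had 5 of 8 lower. Crabp1, which encodes a cellular retinoic acid binding protein, stood at 136, 131 and 165 against 471, 426 and 464 FPKM (-1.65, SE 0.11, adjusted p = 3.3e-05). Kit, the receptor gene that marks differentiating spermatogonia, stood at 1.56, 1.69 and 2.12 against 8.26, 5.59 and 5.18 FPKM (-1.38, SE 0.17, adjusted p = 0.00069). Stra8, which responds to retinoic acid, stood at 84.3, 81.9 and 107 against 202, 186 and 174 FPKM (-1.04, SE 0.13). In none of these did the fractions overlap, and Stra8 transcripts remained abundant in TSPAN8-high. Ly6k stood at 2.13, 1.10 and 1.47 against 11.2, 12.1 and 9.79 FPKM (-2.24, SE 0.16), and Lhx8, a LIM-homeobox gene, at 0.431, 0.272 and 0.416 against 5.11, 2.19 and 2.30 (-1.55, SE 0.18). The basic helix-loop-helix genes Neurog3, Sohlh1 and Sohlh2 fell by 0.43 to 0.69, and Ndrg4 fell by 1.17 on the log2 scale. Leaving out a pair gave 6 or 7 lower calls in each list, and the fit without the pair term gave 5 in each. With the mean Sertoli marker level as a term in place of the pair, 1 progenitor gene and 4 differentiation genes were called lower.

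Of 24 tested meiotic genes 1 was higher and 3 lower (median -0.04). The called share of 16.7% was near the 19.0% over all tested genes, with 12.5% lower against 7.5%. The largest change among them was that of Sycp3, which encodes a protein of the synaptonemal complex and is transcribed well before meiosis. It stood at 877, 700 and 500 against 1579, 1323 and 1036 FPKM (-0.94, SE 0.11, adjusted p = 0.00068). Syce2 fell by 0.51 (adjusted p = 0.016, and 0.12 without the pair term). Rec8, the meiotic cohesin gene, was higher by 0.52 at 1.80, 2.68 and 3.61 against 0.916, 1.66 and 2.12 FPKM, with overlapping values (0.21 without the pair term).

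Both receptor genes of GDNF and several feedback genes of the pathway below it were higher. Gfra1, the GDNF co-receptor gene, stood at 19.2, 17.7 and 17.7 against 4.30, 7.08 and 8.93 FPKM (1.35, SE 0.18, adjusted p = 0.00082). Ret, the gene of its signalling partner, stood at 8.07, 8.08 and 8.52 against 2.03, 4.01 and 3.97 FPKM (1.12, SE 0.16), and Fyn, a Src-family kinase gene, at 25.1, 26.5 and 29.9 against 12.4, 15.6 and 15.1 (0.88, SE 0.12). The TSPAN8-high values of Gfra1 and Ret varied little, and their TSPAN8-low values were lowest in library 1. Of 15 tested receptors and adaptors 5 were higher and none lower, and 3 were called without the pair term. Among 10 tested feedback genes and targets of the ERK kinase cascade, 6 were higher and none lower (median 0.62). Dusp6, an ERK phosphatase gene, stood at 75.3, 68.2 and 68.9 against 21.9, 26.8 and 36.6 FPKM (1.32, SE 0.15, adjusted p = 0.00056). The receptor tyrosine kinase inhibitor genes Spry1 and Spry4 were higher by 0.95 and 0.91, and Ier3, Dusp5 and Etv4 by 0.61 to 0.78. Of these 6 rises 3 were called without the pair term. With the mean Sertoli marker level as a term in its place, 1 ERK feedback gene and none of the receptors and adaptors was called higher.

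Genes of retinoid handling moved both ways, with 4 of 15 tested higher and 2 lower. Aldh1a3, whose product makes retinoic acid, was at 2.63, 2.72 and 2.35 against 0.165, 0.643 and 0.620 FPKM (1.29, SE 0.16, adjusted p = 0.00069). Aldh1a1, another such dehydrogenase gene, was at 1.33, 5.56 and 7.12 against 0.580, 1.02 and 2.48 (1.16, SE 0.19). Its fractions overlapped, TSPAN8-high library 1 was the lowest of its group, and without the pair term the adjusted p was 0.14. With the Sertoli marker level as a term its estimate was 0.24 (adjusted p = 0.74). Rxrg and Dhrs3 were higher by 0.66 and 0.56 and Rbp4 fell by 0.64. In the BMP and activin pathways 2 of 19 tested genes were higher and 2 lower. Fst, the gene of the secreted activin antagonist follistatin, stood at 17.6, 19.6 and 19.13 against 5.21, 7.73 and 7.46 FPKM (1.36, SE 0.13, adjusted p = 0.00027). Smad6, an inhibitory SMAD gene, was higher by 0.57 and the receptor gene Acvr2b fell by 0.46. Both of these calls were lost without the pair term (adjusted p 0.081 and 0.12), and no fall of this list was called without pair 1 or without pair 2.

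Other signalling pathways differed in their shares of calls. None of 21 tested WNT genes and none of 13 Notch genes was called in limma, with 3 and 5 at an unadjusted p under 0.05. Znrf3, a WNT receptor ligase gene, had the smallest p of the first (log2 fold change -0.43, adjusted p = 0.057) and Dll3, a ligand gene, of the second (-0.39, adjusted p = 0.066). With a common median 1 WNT and 2 Notch genes were called lower, and without pair 2 or pair 3 there was 1 Notch call. Genes of mTOR and PI3K signalling were called 5 times in each direction among 39 tested, 12.8% higher and 12.8% lower. Rps6kb2, which encodes an S6 kinase, stood at 6.72, 10.6 and 11.6 against 3.68, 5.46 and 4.78 FPKM (0.90, SE 0.14, adjusted p = 0.0017). Sesn1 and Sesn2, which encode inhibitors of mTORC1, were higher by 0.83 and 0.50. On the falling side were Eif4ebp1, a translation repressor gene (-0.54), Rheb, the activating GTPase gene (-0.46), and Lamtor3, Lamtor4 and Lamtor5, which encode subunits of the lysosomal anchor of mTORC1. All 5 falls were lost without the pair term or without pair 2. In the Hippo pathway the kinase adaptor genes Mob1a and Mob1b fell by 0.70 and 0.73, and Amot, which encodes a scaffold protein, rose by 0.80. Mob1a alone was called without the pair term.

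At the cell surface the largest rise belonged to Plvap, the gene of a protein found in the diaphragms of caveolae and pores. It stood at 12, 15.4 and 16 against 1.76, 3.97 and 4.17 FPKM (1.89, SE 0.15, adjusted p = 5.7e-05). The tetraspanins did not follow Tspan8: among 17 others tested 1 was higher and 3 lower. Cd63, the gene of a tetraspanin of late endosomes, stood at 82.6, 92.8 and 98.7 against 231, 234 and 233 FPKM (-1.34, SE 0.11, adjusted p = 7.8e-05), with its libraries close to each other within each fraction. Tspan13 and Tspan4 fell by 0.65 and 0.43, with adjusted p of 0.072 and 0.12 without the pair term. Cd82 was the 1 that rose, from 2.33, 2.14 and 3.96 to 5.86, 5.70 and 6.30 FPKM (0.90, SE 0.15). Without pair 3 there were 3 rises and 4 falls.

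Of 20 tested junction genes 8 were higher and 1 lower (median 0.23). Ocln, the occludin gene of tight junctions, stood at 17.1, 20.2 and 20.9 against 6.26, 7.75 and 10.1 FPKM (1.19, SE 0.13, adjusted p = 0.00048). Mcam, an adhesion receptor gene of the immunoglobulin family, stood at 49.4, 59.2 and 59.0 against 18.8, 28.7 and 27.5 (1.14, SE 0.12), and Gjb2, a connexin gene, at 7.54, 5.83 and 6.81 against 2.53, 3.31 and 2.99 (0.97, SE 0.15). The fractions did not overlap for these 3 genes. Gja1, another connexin gene, rose by 1.08 but overlapped, at 1.00, 2.80 and 4.78 against 0, 0.115 and 3.14 FPKM, which is the order of the Sertoli sums within each fraction. Tjp1 and Pvrl2 rose by 0.68 and 0.63. Pvrl3 fell by 0.58. Of the 8 rises 4 were called without the pair term. The summed Sertoli markers moved the same way, and with their mean level as a term 2 rises were called, Ocln among them. The integrin gene Itgb5 (0.88) and the basement membrane gene Nid1 (1.04) rose, each the only call among 4 and 8 tested genes of its list. Ly6a, the gene of the surface antigen Sca-1, rose by 0.99 and Ly6c1 by 0.91, while Cd55, a complement inhibitor gene, fell by 0.71. None of these 3 was called without the pair term (adjusted p 0.058, 0.077 and 0.14).

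In membrane traffic a few genes changed by more than 2-fold. Optn, which encodes the autophagy receptor optineurin, stood at 17.9, 25.8 and 27.6 against 4.58, 7.59 and 6.90 FPKM (1.75, SE 0.12, adjusted p = 3.3e-05). Bnip3, which encodes a receptor for the removal of mitochondria, went the other way with 114, 82.6 and 74.8 against 307, 195 and 208 FPKM (-1.37, SE 0.11, adjusted p = 7.2e-05). Of 39 tested autophagy genes 6 were higher and 2 lower, and Optn and Bnip3 alone were called without the pair term. Without pair 2 there were 3 rises and 1 fall. Rab4a, the gene of a recycling endosome GTPase, stood at 26.2, 25.2 and 30.2 against 4.54, 8.90 and 13.4 FPKM (1.61, SE 0.19, adjusted p = 0.00065). Rab34 stood at 13.0, 11.5 and 13.8 against 27.0, 21.6 and 23.3 (-0.86, SE 0.12). Neither overlapped. Of 44 tested Rab genes 4 were higher and 5 lower, and with a common median 1 was higher and 6 lower. The called shares of the autophagy genes and of the Rab genes, 20.5% each, were near the 19.0% over all tested genes.

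Trf, the gene of the iron carrier transferrin, stood at 28.2, 46.8 and 52.1 against 8.33, 17.3 and 14.0 FPKM (1.62, SE 0.13, adjusted p = 6e-05), and Slc40a1, the gene of the iron exporter ferroportin, at 10.1, 7.47 and 7.99 against 4.52, 3.51 and 4.63 (0.87, SE 0.14). Of 19 tested iron genes 3 were higher and 4 lower, and without the pair term 2 and 1. With the mean Sertoli marker level as a term in place of the pair, no iron gene was called higher and 2 were called lower. In that fit Trf and Slc40a1 had estimates of 1.21 and 0.89 (adjusted p 0.079 and 0.075). Among 43 lysosomal genes 9 were higher and 1 lower. Asah1 and Ctsl, which encode lysosomal hydrolases, rose by 0.49 and 0.48, and none of the 10 calls held without the pair term. With the Sertoli marker level as a term Asah1 and Ctsl had estimates of 0.58 and 0.06 (adjusted p 0.097 and 0.90). With a common median 2 rises were called, and without pair 1 or pair 2 they were 3 and 4. Cd68, a lysosomal gene that also marks macrophages, was among the 9 rises, and the leukocyte sums given above rose with it. Of 24 dynein and dynactin genes, which serve transport toward microtubule minus ends, 5 were higher and 1 lower. Dync1i1 stood at 1.98, 2.81 and 2.18 against 0.319, 0.867 and 0.860 FPKM (0.99, SE 0.15, adjusted p = 0.0013). Dync1i2 and Actr1a rose by 0.71 and 0.69. Copz2, a COPI coat subunit gene, fell by 1.17 on the log2 scale, from 11.3, 8.65 and 10.1 to 4.38, 3.44 and 3.82 FPKM.

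Several glycolysis genes were higher. Of 21 tested 9 were higher and none lower (median 0.36). Ldha, the lactate dehydrogenase A gene, stood at 17.1, 22.9 and 25.7 against 8.99, 12.8 and 13.8 FPKM (0.84, SE 0.12, adjusted p = 0.0012), with no overlap. Ldhb stood at 56.8, 68.3 and 92.8 against 19.2, 37.5 and 57.9 (1.01, SE 0.16), and Pkm, the pyruvate kinase gene, at 70.7, 183 and 197 against 50.6, 111 and 76.3 (0.85, SE 0.16). The fractions of both overlapped and their calls were lost without the pair term (adjusted p 0.11 and 0.22). Without the pair term 1 of the 9 glycolysis genes was called, with a common median 5, and without pair 2 there were 4. The 3 pairs had list medians of 0.27, 0.37 and 0.33. The summed Sertoli markers rose in the same direction, and with their mean level as a term no glycolysis gene was called.

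Estimates for the respiratory chain were mostly below 0, and 13.3% of its genes were called lower against 7.5% of all tested genes. Of 75 tested subunit genes of the respiratory complexes and ATP synthase 1 was higher and 10 lower (median -0.17), with 62 estimates under 0. Ndufa12, of complex I, stood at 175, 192 and 241 against 246, 304 and 385 FPKM (-0.61, SE 0.11, adjusted p = 0.0042). Ndufv1, also of complex I, was the 1 that rose, with 275, 369 and 426 against 189, 269 and 234 (0.62, SE 0.12). None of these 11 calls held without the pair term, and leaving out a pair gave between 2 falls (without pair 2) and 25 (without pair 1). The list medians by pair were 0.00, -0.33 and -0.22. Mitochondrial ribosomal protein genes had 6 of 76 lower and none higher (median -0.15), which is near the background for lower calls, and leaving out a pair gave 1 to 14. Of 27 citric acid cycle genes 4 were higher, among them Idh2 (0.82) and Pdha1 (0.67), and 1 lower. Their called share of 18.5% was near the 19.0% over all tested genes. Fatty acid genes had 5 of 27 higher and 1 lower. In both lists no call held without the pair term.

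In smaller pathways single enzymes stood out. Gfpt2, which encodes the first enzyme of hexosamine synthesis, stood at 36.2, 50.6 and 66.5 against 8.91, 17.6 and 20.1 FPKM (1.69, SE 0.13, adjusted p = 4.9e-05), the only rise among 18 tested genes of that pathway. Gchfr, which encodes the feedback regulator of tetrahydrobiopterin synthesis, stood at 3.34, 1.92 and 4.61 against 23.3, 16.8 and 21.0 (-2.36, SE 0.15, adjusted p = 2.1e-05), the only call among 7. With the mean Sertoli marker level as a term in place of the pair, Gchfr stayed called lower. Gfpt2 had an estimate of 1.08 in that fit (adjusted p = 0.060). Mtr, the methionine synthase gene, rose by 0.81, and 4 of 19 serine, glycine and folate genes were higher, none of them without the pair term. Among 147 tested solute carriers 15 were higher and 16 lower, and without the pair term 3 in each direction. Their called share of 21.1% was near the 19.0% over all tested genes. Slc29a1, a nucleoside transporter gene, stood at 8.16, 7.70 and 10.3 against 22.3, 17.6 and 24.3 FPKM (-1.20, SE 0.13, adjusted p = 0.00036). Slc38a1, an amino acid transporter gene, rose by 0.98 and the folate carrier gene Slc46a1 fell by 0.92.

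Glutathione and redox genes were called 11 times higher and 3 times lower among 40 tested. Gstm2, a glutathione transferase gene, stood at 25.9, 29.5 and 85.1 against 6.48, 5.41 and 65.2 FPKM (1.49, SE 0.27, adjusted p = 0.004), and Mgst1 at 2.86, 3.25 and 8.2 against 0.218, 0.460 and 5.95 (1.20, SE 0.22). Library 3 was the highest of each fraction for both, as it was for the Sertoli sums, and the fractions overlapped. Gstp1 rose by 0.66 without overlap. Sod2, the mitochondrial superoxide dismutase gene, stood at 28.1, 29.7 and 33.2 against 48.4, 47.9 and 50.8 FPKM (-0.68, SE 0.11, adjusted p = 0.0028). Without the pair term no rise and 1 fall of the list was called, and without pair 1 there were 5 rises. With the mean Sertoli marker level as a term in place of the pair, the estimates of Gstm2 and Mgst1 were -0.41 and -0.24.

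**Figure D4:**
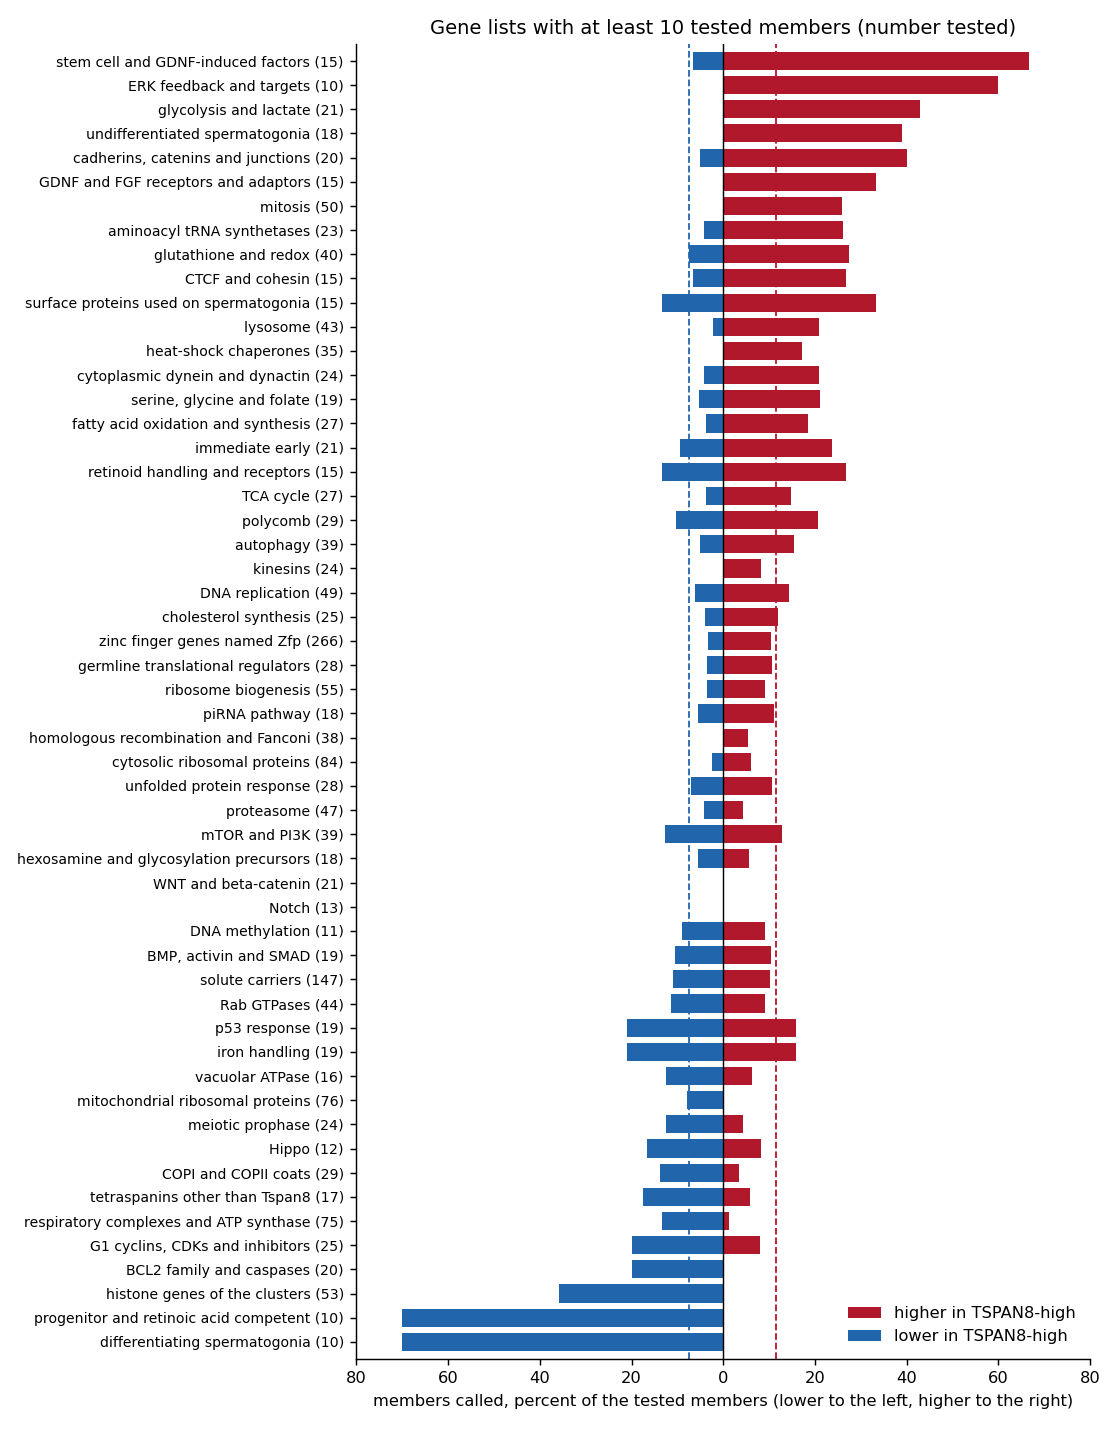
Share of tested members called higher (red, to the right) or lower (blue, to the left) in TSPAN8-high, in percent, for lists with at least 10 tested members other than markers of other cell types; dashed lines give the shares over all tested genes, 11.5% higher and 7.5% lower. Stem cell and ERK feedback genes lie furthest right, and progenitor, differentiating and histone genes furthest left.

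Mitosis genes were called only as higher, while G1 genes were called both ways. Of 50 tested mitosis genes 13 were higher and none lower (median 0.26). Top2a, the topoisomerase gene of chromosome condensation, stood at 60.7, 70.1 and 62.0 against 45.5, 38.9 and 32.6 FPKM (0.72, SE 0.13, adjusted p = 0.0041). Cdc25b, a phosphatase gene for mitotic entry, stood at 1.83, 2.57 and 3.35 against 0.805, 0.973 and 1.44 (0.78, SE 0.14). The fractions did not overlap for either, and both were called without the pair term, as no other mitosis gene was. Leaving out a pair gave 19, 4 and 10 rises for pairs 1, 2 and 3, and a common median gave 7 rises and 2 falls. Of 49 DNA replication genes 7 were higher and 3 lower, 20.4% called against 19.0% over all tested genes. Without the pair term no DNA replication gene was called. Without pair 2 there were no rises and 1 fall. Of 25 genes for G1 cyclins, their kinases and inhibitors 2 were higher and 5 lower. Cdk6 stood at 1.5, 2.39 and 2.60 against 10.3, 7.36 and 6.00 FPKM (-1.48, SE 0.20, adjusted p = 0.00096), and Ccne2, the cyclin E2 gene, at 20.1, 18.6 and 15 against 34.6, 30.6 and 34.3 (-0.86, SE 0.13). Cdkn1c, the gene of the CDK inhibitor p57, stood at 18.4, 15.4 and 16.6 against 8.70, 10.1 and 8.61 (0.81, SE 0.13). These 3 calls held without the pair term.

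Targets of p53 were called in both directions, 3 higher and 4 lower of 19. Phlda3 stood at 2.44, 3.38 and 4.27 against 12.8, 9.92 and 8.24 FPKM (-1.38, SE 0.20, adjusted p = 0.0011), and Ccng1, the cyclin G1 gene, at 18.5, 17.4 and 15.9 against 48.0, 36.2 and 31.3 (-1.09, SE 0.13). Plk3 and Pmaip1, the gene of the death factor NOXA, rose by 0.86 and 0.81. Immediate early genes had 5 of 21 higher and 2 lower. Klf6 stood at 5.28, 5.3 and 5.4 against 1.84, 2.45 and 2.44 FPKM (0.97, SE 0.14, adjusted p = 0.0012), and the AP-1 genes Junb and Fos rose by 0.69 and 0.70. Fos overlapped and was not called without the pair term (0.18). Dusp2, a nuclear ERK phosphatase gene, fell by 1.28 on the log2 scale.

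Histone genes of the clusters were called only as lower, 19 of 53 tested (median -0.27). By class, 10 of 13 H2A, 7 of 15 H2B, 1 of 11 H3, 1 of 10 H4 and none of 4 H1 genes were called. Hist1h2bm stood at 16.8, 18.4 and 25.4 against 31.6, 40.4 and 51.2 FPKM (-0.98, SE 0.12, adjusted p = 0.00065), and Hist1h2ba, the testis-specific H2B gene, at 4.13, 5.09 and 6.59 against 10.1, 14.6 and 11.9 (-1.08, SE 0.15). Neither overlapped. Many H2A genes are near-identical, so reads can be split between copies and the 10 calls are not separate measurements. Most histone messages lack the poly(A) tail on which the cDNA kit primes. Without the pair term 3 histone genes were called, and without pair 2 there were 5.

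Chromatin regulators were called in both directions. Of 29 polycomb genes 6 were higher and 3 lower: Scmh1 rose by 0.95 (adjusted p = 0.0011), Kdm2b by 0.68 and the methyltransferase gene Ezh2 by 0.52. Of these calls 1 held without the pair term, and without pair 2 there were 1 rise and 1 fall. The cohesin genes Smc1a, Smc3, Nipbl and Stag2 rose by 0.44 to 0.69, and none of the 4 was called without the pair term. DNA methylation, piRNA pathway and translational regulator genes lay near the background: 1 of 11, 2 of 18 and 3 of 28 were higher and 1 in each was lower. Zinc finger genes named Zfp had 28 of 266 higher and 9 lower, a split that a common median turned to 12 and 15. Zfp37 rose by 1.05, from 3.46, 2.59 and 2.27 to 8.48, 5.70 and 6.39 FPKM.

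Genes for making and folding proteins were called in differing shares. Cytosolic ribosomal protein genes had 5 of 84 higher and 2 lower, and ribosome biogenesis genes 5 of 55 and 2. Rps27 was among the 10 most abundant genes with at least a 2-fold change, but its values of 363, 457 and 574 against 82.3, 506 and 95.9 FPKM overlapped (1.52, SE 0.37, adjusted p = 0.017, and 0.14 without the pair term). Of 23 aminoacyl tRNA synthetase genes 6 were higher and 1 lower, and of 35 heat-shock chaperone genes 6 were higher and none lower. Hspa8, an abundant chaperone gene, stood at 1253, 1777 and 1822 against 1027, 1173 and 1153 FPKM (0.52, SE 0.12, adjusted p = 0.015, and 0.14 without the pair term). For the synthetases leaving out a pair gave 13, 4 and 2 rises and for the chaperones 13, 0 and 2, for pairs 1, 2 and 3. Genes of cholesterol synthesis had 3 of 25 higher and 1 lower, kinesins 2 of 24 and none, homologous recombination and Fanconi genes 2 of 38 and none, and the unfolded protein response 3 of 28 and 2. Proteasome genes were called 2 times in each direction among 47.

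The largest falls outside the lists included regulators of transcription and signalling. Cited1, a transcriptional coregulator gene, stood at 12.1, 9.77 and 19.9 against 111, 94.2 and 94.5 FPKM (-2.81, SE 0.17, adjusted p = 2.1e-05), the largest fall of all called genes. Lmo1, a LIM-domain coregulator gene, stood at 8.39, 6.70 and 6.56 against 32.7, 28.9 and 31.4 (-1.97, SE 0.12). Gal, the gene of the neuropeptide galanin, stood at 1.99, 2.55 and 1.43 against 15.8, 11.4 and 7.92 (-2.06, SE 0.16). All 3 were called without the pair term (adjusted p 0.00041, 0.00041 and 0.0028). Tcea3, an elongation factor gene, the G protein gene Gnai1, Fgf13, Spag4, Lrrn4cl and 1700064M15Rik fell by 1.44 to 1.74 on the log2 scale. On the progenitor list, Tbx1, a T-box gene, was at 0.086, 0.223 and 0.248 against 4.18, 2.69 and 1.20 FPKM (-1.56, SE 0.22), opposite in direction to T.

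Outside the lists, Tmsb4x, the gene of the actin-binding peptide thymosin beta-4, had the largest rise of the called genes. It stood at 9.49, 43.5 and 75.9 against 3.84, 8.87 and 11.4 FPKM (1.98, SE 0.22, adjusted p = 0.00054), overlapped and was not called without the pair term (0.086). Within each fraction these values have the order of the leukocyte and the Sertoli sums. The part of those cells in Tmsb4x was not tested. Among genes without overlap, Pqlc1 stood at 23.3, 19.7 and 22.9 against 3.40, 7.01 and 9.47 FPKM (1.68, SE 0.21, adjusted p = 0.00069), and Defb41, a beta-defensin gene, at 22.2, 16.9 and 14.4 against 4.77, 6.02 and 4.61 (1.61, SE 0.15). Akr1b8, an aldo-keto reductase gene, stood at 36.5, 37.4 and 44.0 against 8.04, 14.9 and 21.5 (1.44, SE 0.18), and Sphk1, which encodes the kinase that makes sphingosine 1-phosphate, at 24.1, 32.8 and 35.4 against 7.55, 13.4 and 13.5 (1.37, SE 0.12). Oit1, Cbln2, the beta-defensin gene Defb20 and Tnfsf4, a TNF-family ligand gene, rose by 1.45 to 1.67. The fractions stood apart for each of these genes other than Tmsb4x, and each of those was called without the pair term. With the mean Sertoli marker level as a term in place of the pair, Defb41, Defb20, Cbln2 and Tnfsf4 stayed called higher. In that fit Pqlc1, Oit1, Akr1b8 and Sphk1 had estimates of 1.23, 1.23, 0.89 and 0.99 (adjusted p 0.066, 0.069, 0.092 and 0.070).

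Most of the abundant falls shared 1 pattern. The set was defined after its values were seen, by following Omd, which encodes the matrix proteoglycan osteomodulin: a gene belonged if its log2(FPKM + 1) over the 9 libraries had a correlation with Omd of at least 0.98 and a slope on it of 0.8 to 1.25. This took 35 tested genes, Omd included, and all 35 were called lower, a direction that the rule itself fixes. They made up 4.31% of the lower calls, 23 of the 85 lower calls of at least 2-fold, and 8 of the 10 most abundant called genes with a 2-fold change. Omd stood at 379, 472 and 710 against 807, 1333 and 1327 FPKM (-1.16, SE 0.13, adjusted p = 0.00054). Zmynd8 stood at 167, 213 and 312 against 330, 559 and 540 (-1.05, SE 0.13), and H2-T23, of a gene family with near-identical members, at 136, 193 and 246 against 272, 505 and 417 (-1.05, SE 0.13). Their fold changes lay between -1.41 and -0.88, with medians by pair of -0.94, -1.38 and -0.78. The genes encode unrelated proteins, among them the GTPase Rab33b, the apoptosis regulator Cflar, the citric acid cycle enzyme Ogdh, the iron reductase Cybrd1 and the CTCF paralog Ctcfl.

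The transcripts of these genes were compared because of this likeness. In the GENCODE M21 reference 34 of the 35 have a transcript, and the run of 30 bases that most of them held is shown here because these otherwise unrelated genes have it in common. It lies on the transcript strand in 18 genes and on the other strand in 8, and is printed 5′ to 3′:
shared stretch: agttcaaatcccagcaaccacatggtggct
It is part of the B2 family of short interspersed repeats, which occurs in very many copies across the mouse genome. On either strand 26 of the 34 genes (76.5%) held it, against 3.38% of the tested genes outside the set, 4.30% of the lower calls outside the set and 2.93% of the higher calls. The run was chosen for being the most shared in the set, so its share there is a description. The fractions did not overlap for 29 of the 35 genes. In all 35 the 3 TSPAN8-high libraries lay below the 3 libraries of ungated cells, as they did for Omd, and since the rule used all 9 libraries it fixes this. The part of the repeat in these values was not tested. Without the set 778 genes were lower. In the lists above, Rab33b, Cflar, Ogdh, Cybrd1 and Ctcfl each supplied 1 lower call, and without them no lower call remained among the citric acid cycle genes or the cohesin and CTCF genes.

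**Figure D5:**
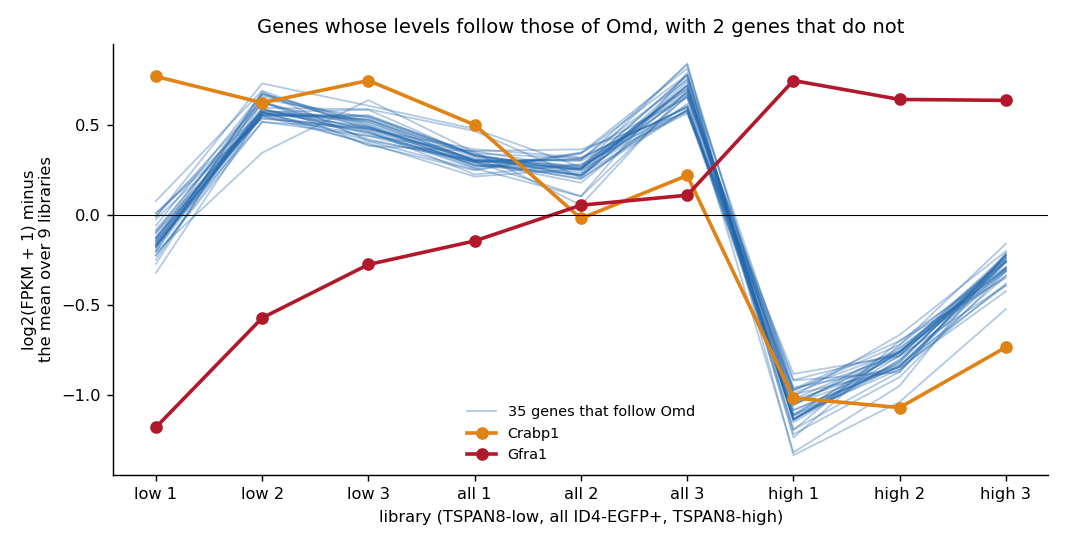
Log2(FPKM + 1) minus each gene's mean over the 9 libraries (vertical axis) in each library (horizontal axis) for the 35 genes that follow Omd (blue lines), with Crabp1 and Gfra1 for comparison. The blue lines run close together, lie lowest in the TSPAN8-high libraries and lie in the ungated libraries within or above the range of the TSPAN8-low libraries, whose library 1 comes nearest to TSPAN8-high library 3.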

How the data were processed

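The deposited tables give FPKM per gene, as the authors made them on the mm9 build, with Cufflinks, TopHat2 2.0.12, Bowtie2 2.2.3.0 and FastQC as tools, per the submitters' processing notes, from SMART-Seq v4 cDNA and Nextera XT libraries. The sources used here do not give the Cufflinks version or the annotation. A second deposited table holds the authors' normalized signal for the same genes, used as an alternative scaling. Of 23813 entries, 768 under 262 repeated symbols and 27 that read as dates were left out, and 10846 genes with at least 1 FPKM in at least 3 of 6 libraries were tested on log2(FPKM + 1).

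limma 3.58.1 in R 4.3.3 was fitted to the 6 libraries with the library number as a block, with trend, and p-values were Benjamini-Hochberg adjusted. The library number, which the titles of both fractions share, was taken as the pair. Deviations from the fraction means correlated at 0.44, 0.30 and 0.27 between libraries of equal number and at -0.47 to 0.29 between others. TSPAN8-high library 3 was as close to TSPAN8-low library 2 (0.29) as to TSPAN8-low library 3 (0.27). These values come from the libraries tested, so they are no separate evidence for the pairs. On simulated data with 200 changed genes among 10846, tested in 10 draws, 71.6% of genes changed 1.5-fold and 99.6% of those changed 2-fold were recovered, and 7.25% of calls were false. The simulated noise was normal and took its variances from the fit, and 2064 genes were called in the data. These rates describe the simulated setting only. Exact tests used scipy 1.17.1 and figures matplotlib 3.10.9 in Python 3.11.15.

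The comparison and its 66 gene lists were chosen with earlier results of these data known, and 3 lists defined by symbol (Rab, vacuolar ATPase, solute carriers) were narrowed after their matches were seen. Genes to name were drawn from the 15 largest rises and 15 largest falls without overlap, the 10 most abundant genes with a 2-fold change and up to 3 called genes of smallest p from each list, or the 1 of smallest p where none was called. Other genes named, and the set that follows Omd, were chosen after their values were seen. Alternatives were the fit without the block, all 9 libraries, the authors' normalized values, other scalings, pseudocounts, filters, left-out libraries and a Sertoli marker term.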

Additional observations from a re-analysis of the deposited data

How the results depend on the processing

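The counts of 1251 higher and 813 lower genes depended on the replicate block. Without it they were 313 and 217, and leaving out 1 TSPAN8-high library of that fit gave 458, 79 and 104 higher and 196, 58 and 115 lower for libraries 1, 2 and 3, and 1 TSPAN8-low library 179, 138 and 258 higher and 219, 86 and 102 lower. Without the block and with the mean Sertoli marker level as a term they were 51 and 127. In paired fits without 1 pair they ran from 756 to 1296 and from 415 to 843, lowest without pair 2. In those fits limma's prior degrees of freedom were 7.54 without pair 1 and infinite without pair 2 or pair 3. Scaling changed the higher calls, 777 with the authors' normalized values and 746 with a common median. Without a filter on low values 18873 genes were tested and 0 were called in either direction, with 4256 at an unadjusted p under 0.05; limma's prior degrees of freedom were 2.64 there against 9.20. All 9 libraries, quantile normalization, a pseudocount of 0.1, a minimum of 5 FPKM and a fit without trend kept both counts within 1.5 times.

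Of the 199 genes chosen by the naming rule 197 were called, 104 of them also without the block. None of their directions turned under any alternative but the Sertoli marker term, where the log2 fold changes of Gstm2, Mgst1, Sparc and Defb19 became -0.41, -0.24, -0.18 and -0.97. With 3 libraries a fraction and 200 changed genes, 71.6% of simulated 1.5-fold changes were recovered, and smaller ones were not simulated.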

Other observations

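Other gene families were looked through by symbol, among 315 symbol prefixes that at least 5 tested genes share, listed genes included. The families below were chosen after their values were seen, so no test is given for them as groups. Some of their members are on lists above, among them Aldh1a1, Aldh1a3 and Defb19. All 5 tested S100A genes, which encode small calcium-binding proteins, were higher (median log2 fold change 1.04). S100a6 stood at 11.8, 20.9 and 17.8 against 3.47, 7.81 and 7.50 FPKM (1.33), and 4 of the 5 did not overlap. Without the pair term S100a6, S100a11 and S100a16 were called. Of 6 tested beta-defensin genes 5 were higher (median 1.34), Defb41, Defb20, Defb19, Defb36 and Defb47, and 3 of these did not overlap and were called without the pair term. Defb19 is also a Sertoli marker, and its estimate was below 0 with the Sertoli marker level as a term. Of 10 aldehyde dehydrogenase genes 6 were higher (median 0.55), and of 9 aldo-keto reductase genes 4 were higher (median 0.45). Of these calls Aldh1a3 and Akr1b8 held without the pair term.

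Among genes of the conserved oligomeric Golgi complex, which tethers vesicles in the Golgi, 4 of 8 were higher (median 0.39). In the X-linked Xlr family 4 of 10 genes were lower, Xlr, Xlr4a, Xlr4b and Xlr4c, whose near-identical copies make the split of reads among them uncertain. The family median was 0.06, and the Xlr3 and Xlr5 genes were not called, with estimates of 0.04 to 0.16. Of 9 tested Mfsd genes, which encode membrane transporters, 4 were lower and none higher (median -0.11). None of the 4 calls in each of these last 3 families held without the pair term, with adjusted p of 0.14 to 0.20, 0.14 to 0.24 and 0.051 to 0.13.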
